A study of Mus musculus with 6 samples.

Results

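The genes described here encode the ATP-dependent chromatin remodelers of mouse nephron progenitor cells: the SWI/SNF complexes and the CHD, ISWI and INO80 families, with a few relatives. They were taken by name, as every protein-coding gene in the deposited table whose symbol begins Smarca, Smarcb, Smarcc, Smarcd, Smarce or Ino80, or is an Arid1 or Arid2 gene, Chd1 to Chd9, Pbrm1, Srcap, Dpf1 to Dpf3, Actl6a or Actl6b. This gave 37 genes of the 52386 in the table, and all 37 were among the 25157 genes tested. The sorted cells came from kidneys of embryos at E18.5, near birth, whose mothers, CD-1 females mated with Six2 Cre tg/+ males, had been food-restricted or kept on a control diet for the whole pregnancy. There were 3 food-restricted and 3 control libraries. On how much the restricted dams ate the sources differ: per the sample labels it was 30% of the daily calories, and per the series' design text 70%. Which of these was fed is not known here. All 6 libraries carry the same label of strain and genotype, CD-1 with the Six2-driven Cre transgene, so the transgene is shared by both diets, and in such animals the Six2 promoter confines Cre largely to nephron progenitors. Cells were sorted for GFP, and nothing ties a library to a litter, a number of embryos or a sex. The study's text calls the libraries biological replicates. The p-values here set the difference between the diets against the spread between libraries. Whether that is a spread between dams is not known.

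Chromatin remodelers use the energy of ATP to slide, eject or restructure nucleosomes, the protein spools around which DNA is wound. SWI/SNF complexes (BAF and its variant PBAF) mainly open chromatin at promoters and enhancers. ISWI enzymes space nucleosomes evenly and act in replication and chromatin assembly, CHD enzymes act in transcription, and some of them sit in the repressive NuRD complex. INO80 and SRCAP handle the histone variant H2A.Z. In the kidney, nephron progenitors need such enzymes to hold the genes of self-renewal accessible and to silence or open others when cells commit.

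Most remodeler genes stood within a few percent of control in the food-restricted libraries, and 7 of 37 passed the test. Actl6a and Smarca5 fell, and Smarcd1, Arid2, Chd7, Arid1a and Chd2 rose. The falls were to 80.8% (Actl6a) and 86.3% (Smarca5) of the control mean, and the rises to between 110% (Chd2) and 115% (Smarcd1). A gene was called when the limma adjusted p, Benjamini-Hochberg over all 25157 genes, was under 0.05. The 7 genes are 18.9% of the remodelers, where 4.74% of all genes tested were called. Remodeler genes are mostly well expressed, and 34 of them had a mean normalized count of at least 100. Among all protein-coding genes at that level 9.86% were called, against 20.6% of the 34. By direction, 13.5% of the remodelers were called higher (2.24% of all genes) and 5.41% lower (2.5% of all genes). Log2 fold changes followed exon length, and with that trend removed 3 of 37 genes passed, 8.11% of them, where 4.2% of all genes and 8.59% of protein-coding genes at a mean of at least 100 did. Then 1 gene was called higher (2.7% of the remodelers, 1.83% of all genes and 3.35% of those protein-coding genes) and 2 were called lower (5.41% of the remodelers, 2.37% and 5.24%). These remodeler shares are of all 37 genes, which include Actl6b, Dpf1 and Chd5 at means below 100. The median log2 fold change of the 37 genes was 0.035, beside -0.0028 for all genes tested. In the authors' deposited table, made from the same libraries and so no separate evidence, the same 7 genes had an adjusted p under 0.05, and 3.18% of all genes did. At an unadjusted limma p under 0.05 the count was 10, adding Smarca1, Srcap and Chd6. That is 27.0% of the 37, beside 15.6% of all genes. Of the 34 genes at a mean of at least 100 it is 29.4%, beside 26.8% of protein-coding genes at that mean.

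**Figure D1:**
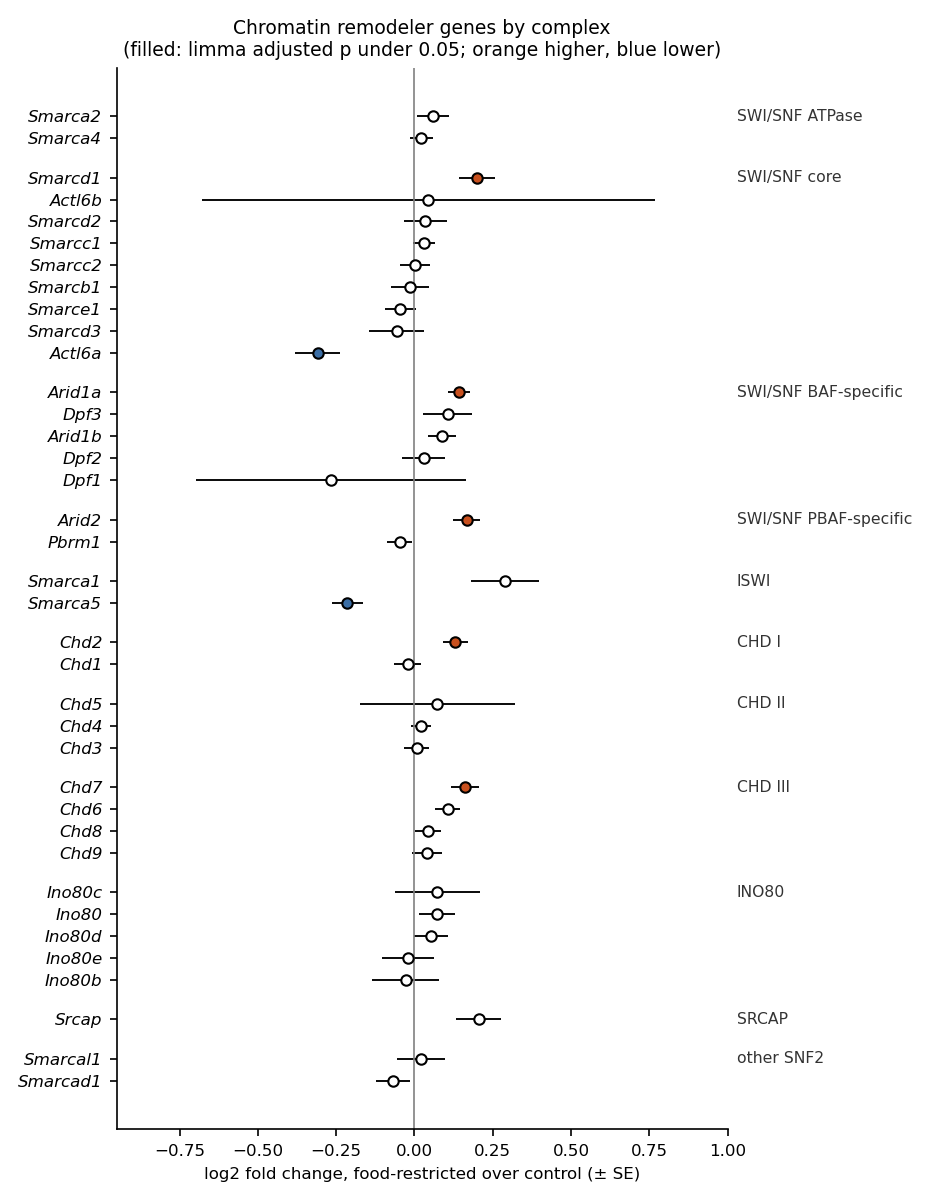
Log2 fold change (food-restricted over control, log2(normalized count + 1) scale, horizontal axis) of each of the 37 genes, ordered by complex down the page; points are limma estimates, bars are ± SE, and filled points passed the test. The 7 filled points lie between -0.31 (Actl6a) and 0.20 (Smarcd1), and the widest bars belong to Actl6b, Dpf1 and Chd5, the 3 genes with the lowest counts.

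The sequences around the start sites of the called genes are shown because the genes that rose and fell can be compared there for letters that known regulators read. Windows of 300 bases, from 250 before to 50 after the start, were taken from RefSeq on GRCm38.p6; 29 of the 37 genes had one, and so did 4 of the 7 called genes. For genes with several windows, the one nearest the 5′ end in the deposited table was used. The window of Actl6a is chr3:32708296-32708595 on the plus strand, which is 2248 bases from the deposited 5′ end. That of Smarca5 is chr8:80739410-80739709 on the minus strand, that of Smarcd1 is chr15:99702037-99702336 on the plus strand, and that of Arid1a is chr4:133756720-133757019 on the minus strand. Capitals mark a match, on either strand, to any of 8 motifs searched.
Actl6a: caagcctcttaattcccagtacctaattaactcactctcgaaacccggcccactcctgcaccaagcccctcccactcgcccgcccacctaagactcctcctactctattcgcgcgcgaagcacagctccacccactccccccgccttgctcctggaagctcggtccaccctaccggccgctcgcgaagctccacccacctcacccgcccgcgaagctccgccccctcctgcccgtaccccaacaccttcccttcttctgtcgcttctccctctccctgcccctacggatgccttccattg
Smarca5: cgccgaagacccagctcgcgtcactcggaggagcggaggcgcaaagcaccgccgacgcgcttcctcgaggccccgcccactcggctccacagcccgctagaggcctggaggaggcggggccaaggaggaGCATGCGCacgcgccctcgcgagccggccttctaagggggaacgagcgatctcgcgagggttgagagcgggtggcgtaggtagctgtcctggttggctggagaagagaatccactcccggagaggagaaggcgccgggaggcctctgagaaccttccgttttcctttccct
Smarcd1: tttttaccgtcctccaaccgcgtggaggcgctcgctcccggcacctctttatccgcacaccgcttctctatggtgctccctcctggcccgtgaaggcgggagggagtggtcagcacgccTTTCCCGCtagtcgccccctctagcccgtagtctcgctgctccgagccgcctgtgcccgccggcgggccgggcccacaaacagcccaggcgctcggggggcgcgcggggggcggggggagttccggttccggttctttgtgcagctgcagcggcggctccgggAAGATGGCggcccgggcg
Arid1a: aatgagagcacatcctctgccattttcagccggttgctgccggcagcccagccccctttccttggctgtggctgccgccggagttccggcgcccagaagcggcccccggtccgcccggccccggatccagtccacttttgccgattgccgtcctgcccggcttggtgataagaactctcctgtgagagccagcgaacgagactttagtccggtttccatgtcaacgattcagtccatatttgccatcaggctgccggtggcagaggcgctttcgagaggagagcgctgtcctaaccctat

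All 4 windows were rich in CpG. They held 21 (Actl6a), 32 (Smarca5), 35 (Smarcd1) and 22 (Arid1a) CpG dinucleotides, where the median of the 32851 windows in the table was 7. The other 25 remodeler windows held 4 to 48, with a median of 23, a range that takes in all 4. GC content was 63.7%, 67.7%, 71.3% and 61.3% in that order of genes, beside a median of 52.7% over all windows. The capitals in Smarca5 are the reverse complement of GCGCATGC, letters read by NRF1, a regulator of housekeeping genes; 2.71% of all windows and 4 of the 29 remodeler windows (Smarca4, Smarca5, Smarcb1 and Smarcc1) held it. Smarcd1 held 2 motifs that do not overlap. The first was TTTCCCGC, a form of the E2F site found at cell cycle genes, which 1.07% of all windows held and no other remodeler window did. The second was AAGATGGC, letters read by YY1, which 2.75% of all windows and 2 remodeler windows (Smarcd1 and Ino80b) held. No remodeler window held the other E2F forms TTTGGCGC (0.514% of all windows) or TTTCGCGC (0.323%). The ETS letters CCGGAAG were in 4 of 29 remodeler windows (8.86% of all), the E-box CACGTG in 2 (7.15% of all) and CCAAT in 11 (37.4% of all), and in none of the 4 called genes shown. A match is a description of letters in these windows and no evidence of binding.

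The SWI/SNF ATPases, the motor subunits Smarca4 (BRG1) and Smarca2 (BRM), did not pass the test. Levels between genes are compared here as normalized counts per kilobase of exon, with exon lengths from GENCODE M21. Smarca4 averaged 1252 and Smarca2 158 per kilobase over the 6 libraries, so that Smarca4 was the second highest of all remodeler genes and Smarca2 the 23rd. Smarca4 had 7718, 8226 and 8577 normalized counts in food-restricted libraries 1 to 3, against 8231, 8149 and 7752 in the controls. The values of the diets interleaved (log2 fold change 0.022, SE 0.037, limma adjusted p = 0.850). Smarca2 was at 2305 ± 55.3 in food-restricted and 2215 ± 122 in control libraries (SD, n = 3 each; 0.058, limma adjusted p = 0.650). The 95% interval of the log2 fold change was -0.052 to 0.096 for Smarca4 and -0.043 to 0.16 for Smarca2.

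Of the 9 core SWI/SNF subunits, Actl6a fell, Smarcd1 rose and the other 7 did not pass. Actl6a (BAF53a, ENSMUSG00000027671, GRCm38 chromosome 3, 32706298 to 32726973, plus strand) encodes the actin-related subunit that dividing progenitors use. It had 764, 670 and 733 normalized counts in food-restricted libraries 1 to 3, against 941, 873 and 870 in control libraries 1 to 3. Every food-restricted library lay below every control, and the closest were food-restricted 1 and control 3 (log2 fold change -0.31, SE 0.072, limma adjusted p = 0.0032). The call was lost without food-restricted replicate 2 (limma adjusted p = 0.0678) or control replicate 1 (0.0600). Actl6b (BAF53b), its counterpart in neurons, was all but absent, with 5.28, 1.58 and 4.59 normalized counts in food-restricted and 3.69, 1.07 and 7.51 in control libraries. Its deposited read counts were between 1 and 7 per library, too few for a difference to be detectable. Mrpl47, on the opposite strand, overlaps Actl6a, and no label, header or processing note used here says how the counting treated strand. Mrpl47 had a log2 fold change of -0.062 (limma adjusted p = 0.890).

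Smarcd1 (BAF60a, ENSMUSG00000023018, GRCm38 chromosome 15, 99702287 to 99713995, plus strand) encodes a subunit that links the complex to transcription factors. It had 1546, 1699 and 1639 normalized counts in food-restricted libraries, against 1452, 1463 and 1337 in the controls. The diets did not overlap, but food-restricted 1 and control 2 were close (0.20, SE 0.058, limma adjusted p = 0.0277). The call was lost without food-restricted replicate 2 (limma adjusted p = 0.217), food-restricted replicate 3 (0.132), control replicate 1 (0.0639) or control replicate 3 (0.208). Its paralogs Smarcd2 (BAF60b) and Smarcd3 (BAF60c, known from heart and muscle) had log2 fold changes of 0.035 (limma adjusted p = 0.877) and -0.057 (0.836). Per kilobase of exon Smarcd1 averaged 378, Smarcd2 242 and Smarcd3 91.6. The scaffold subunits Smarcc1 (BAF155) and Smarcc2 (BAF170) stood at 1014 and 573 per kilobase. Smarcc1 had a log2 fold change of 0.031 and Smarcc2 one of 0.0024 (limma adjusted p = 0.753 and 0.992). Smarcb1 (SNF5), a tumour suppressor that contacts the nucleosome, had a log2 fold change of -0.014 (limma adjusted p = 0.952). For Smarce1 (BAF57), which binds DNA through an HMG box, it was -0.044 (0.755).

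Among the subunits that set the BAF complex apart, Arid1a rose. Arid1a (BAF250a, ENSMUSG00000007880, GRCm38 chromosome 4, 133679008 to 133756769, minus strand) is the large DNA-binding subunit that holds BAF together. It had 8607, 9203 and 9165 normalized counts in food-restricted libraries, against 8310.0, 8143 and 7987 in the controls. Food-restricted replicate 1 was the lowest of its diet and still above all controls (0.14, SE 0.035, limma adjusted p = 0.00669). The call was lost without food-restricted replicate 2 (limma adjusted p = 0.112), food-restricted replicate 3 (0.0910), control replicate 2 (0.0503) or control replicate 3 (0.0685), and with the length trend removed (0.0682). Arid1b, which takes the place of Arid1a in some BAF complexes, had 3341, 3501 and 3528 normalized counts in food-restricted and 3258, 3338 and 3165 in control libraries. Those values did not overlap either, though food-restricted 1 and control 2 were nearly level, and the gene did not pass (0.087, limma adjusted p = 0.337). Per kilobase Arid1a averaged 747 and Arid1b 266. The histone-reading subunits Dpf2 and Dpf3, at 137 and 143 per kilobase, had log2 fold changes of 0.030 and 0.11 (limma adjusted p = 0.902 and 0.569). Dpf1, a neuronal relative, was at 2.86 per kilobase, with 13.6 ± 4.30 normalized counts in food-restricted and 17.1 ± 7.75 in control libraries (-0.27, limma adjusted p = 0.845).

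The PBAF variant replaces Arid1 proteins with Arid2 and adds Pbrm1. Arid2 (BAF200, ENSMUSG00000033237, GRCm38 chromosome 15, 96287518 to 96404992, plus strand) rose. It had 3945, 3845 and 3866 normalized counts in food-restricted libraries, against 3445, 3445 and 3492 in the controls. The gap between the diets was wider than the range within either of them (0.17, SE 0.043, limma adjusted p = 0.00965). The call was lost without control replicate 1 (limma adjusted p = 0.0527) or control replicate 2 (0.0603), and with the length trend removed (0.0586). Pbrm1 (BAF180), the polybromo subunit that reads acetylated histones, was at 4868 ± 94.5 in food-restricted and 5026 ± 114 in control libraries (SD, n = 3 each; -0.046, limma adjusted p = 0.648). Per kilobase Pbrm1 averaged 559 and Arid2 342. Of the 18 SWI/SNF genes as a whole, 3 rose, 1 fell and 14 did not pass, with a median log2 fold change of 0.031.

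**Figure D2:**
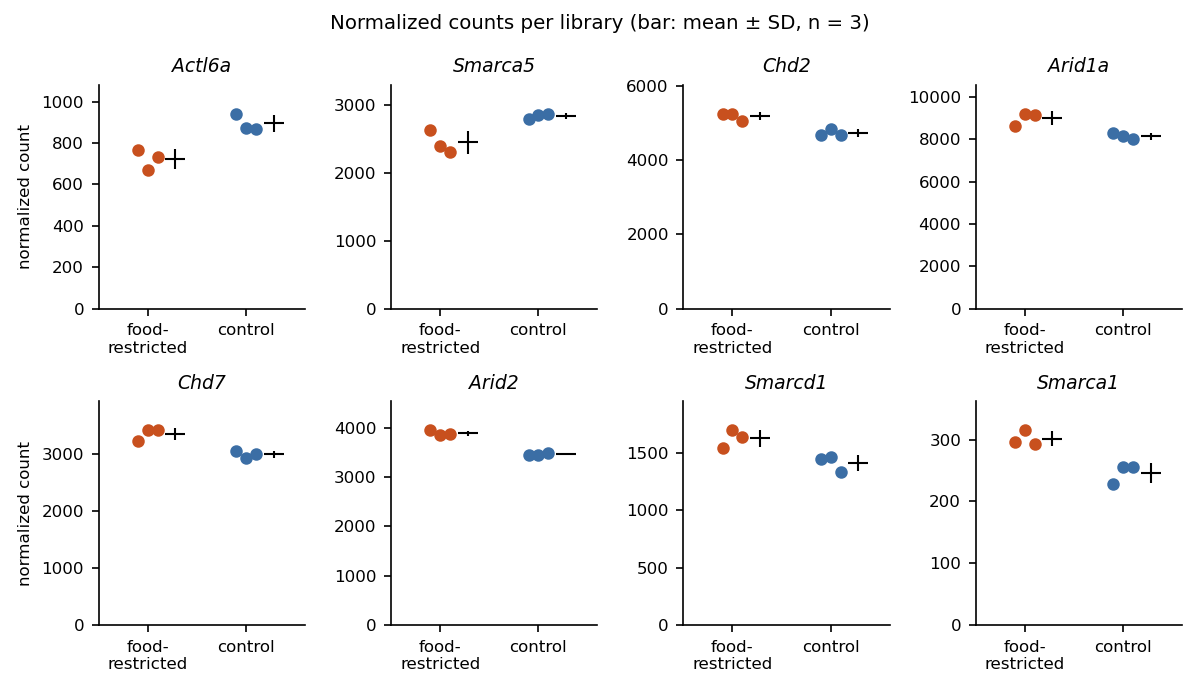
Normalized count (vertical axis, from 0) of the 7 called genes and Smarca1 in each library, food-restricted libraries on the left and controls on the right of each panel; crosses are the mean ± SD (n = 3). In all 8 panels the libraries of the diets do not overlap, for example 670 to 764 in food-restricted against 870 to 941 in control libraries for Actl6a.

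Of the 2 ISWI motors, Smarca5 fell and Smarca1 did not pass. Smarca5 (SNF2H, ENSMUSG00000031715, GRCm38 chromosome 8, 80698507 to 80739497, minus strand) is the ISWI motor of dividing cells. It had 2642, 2406 and 2314 normalized counts in food-restricted libraries, against 2802, 2852 and 2877 in the controls. The controls lay close together, and the food-restricted libraries spread more widely, all below them (-0.21, SE 0.049, limma adjusted p = 0.00291). The call was lost without food-restricted replicate 3 (limma adjusted p = 0.0884). A pseudogene, Smarca5-ps, averaged 27.1 normalized counts beside 2649 for Smarca5, and reads shared between them are uncertain.

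Smarca1 (SNF2L, GRCm38 chromosome X) is the other ISWI motor, known mostly from differentiated cells. It had 296, 315 and 293 normalized counts in food-restricted libraries, against 228, 256 and 256 in the controls, with no overlap. It did not pass the test (0.29, SE 0.11, limma adjusted p = 0.122), although no remodeler gene had a higher log2 fold change. The log2 ratio of Smarca1 to Smarca5 within a library was -3.16, -2.93 and -2.98 in food-restricted libraries, against -3.62, -3.47 and -3.48 in the controls. The difference of 0.50 reached the smallest p that 3 against 3 libraries allow (two-sided exact permutation p = 0.1, 0.267 adjusted over the 16 pairs compared). Per kilobase, the ratio of Smarca1 to Smarca5 averaged 0.157 in food-restricted and 0.110 in control libraries. Smarca1 is X-linked, and sex-linked RNA differed between the diets. Xist, the RNA of the inactive X chromosome, had 25999 to 27067 normalized counts in food-restricted and 16741 to 18395 in control libraries, and the Y-linked Ddx3y had 320.0 to 361 and 691 to 807. Their part in the level of Smarca1 was not tested.

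The CHD family has 3 subfamilies, and of its 9 genes 2 rose, none fell and 7 did not pass (median log2 fold change 0.043). In subfamily I, which travels with active transcription, Chd2 rose and Chd1 did not pass. Chd2 (ENSMUSG00000078671, GRCm38 chromosome 7, 73426638 to 73541830, minus strand) had 5257, 5249 and 5059 normalized counts in food-restricted libraries, against 4679, 4851 and 4683 in the controls. The lowest food-restricted value lay above the highest control (0.13, SE 0.040, limma adjusted p = 0.0388). It was the least firm of the 7 calls, lost without any 1 of the 6 libraries, at a limma adjusted p between 0.0552 (without food-restricted replicate 1) and 0.200 (without food-restricted replicate 2), and with the length trend removed (0.267). An overlapping transcript on the same strand, 1810026B05Rik, averaged 649 normalized counts and had a log2 fold change of -0.23 (limma adjusted p = 0.0754), opposite in sign to Chd2. Chd1, which binds the histone mark of active promoters, was at 3866 ± 155 in food-restricted and 3923 ± 67.7 in control libraries (-0.022, limma adjusted p = 0.881).

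Subfamily II holds the NuRD motors, and none of its genes passed. Chd4 (Mi-2β), the main NuRD motor, was the most abundant remodeler gene at 1745 per kilobase. It had 14395, 13926 and 13963 normalized counts in food-restricted libraries, against 13980, 14020.3 and 13667 in the controls. The diets interleaved, and the 95% interval of the log2 fold change was -0.040 to 0.082 (0.021, limma adjusted p = 0.819). Chd3, the other widespread NuRD motor, stood at 663 per kilobase (0.0067, limma adjusted p = 0.966). Chd5, which is mostly neuronal, stood at 5.36 per kilobase (0.073, limma adjusted p = 0.938).

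In subfamily III, Chd7 rose and Chd6, Chd8 and Chd9 did not pass. Chd7 (ENSMUSG00000041235, GRCm38 chromosome 4, 8690406 to 8867659, plus strand) binds enhancers, and in humans its loss causes CHARGE syndrome. It had 3230, 3426 and 3422 normalized counts in food-restricted libraries, against 3070, 2938 and 3000.0 in the controls. Food-restricted replicate 1 was nearest to the controls and above all 3 (0.16, SE 0.045, limma adjusted p = 0.0215). The call was lost without food-restricted replicate 2 (limma adjusted p = 0.155), food-restricted replicate 3 (0.143), control replicate 2 (0.139) or control replicate 3 (0.0726), and with the length trend removed (0.146). Chd6 had 4862, 4965 and 4709 normalized counts in food-restricted and 4501, 4482 and 4523 in control libraries. All food-restricted values were higher, and the gene did not pass (0.11, SE 0.040, limma adjusted p = 0.137). Chd8, a gene of the Wnt pathway and of human autism, and Chd9 had log2 fold changes of 0.043 and 0.040 (limma adjusted p = 0.698 and 0.775).

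None of the 6 genes named Srcap or with symbols beginning Ino80 passed the test. Each gene was listed under 1 complex only, so the 6 leave out subunits listed elsewhere. Srcap, the motor that exchanges H2A.Z into nucleosomes, had 827, 962 and 917 normalized counts in food-restricted libraries, against 824, 810 and 713 in the controls. The diets did not overlap, though food-restricted 1 and control 1 were nearly level, and the gene did not pass (0.21, SE 0.072, limma adjusted p = 0.0956). Without food-restricted replicate 1, the library with the fewest reads, Srcap passed (limma adjusted p = 0.0233). Ino80, the motor of its complex, was at 1574 ± 7.06 in food-restricted and 1500.3 ± 107 in control libraries (SD, n = 3 each; 0.072, limma adjusted p = 0.613). Its accessory subunits Ino80b, Ino80c, Ino80d and Ino80e had log2 fold changes of -0.028, 0.073, 0.053 and -0.020 (limma adjusted p = 0.714 to 0.951). Ino80e overlaps Hirip3 on the opposite strand, and Hirip3, at a mean of 796 normalized counts, fell by 0.48 on the log2 scale (limma adjusted p = 2.18e-06).

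Both remaining relatives of SWI/SNF motors act alone in DNA repair and replication. Smarcad1, which acts behind the replication fork, had a log2 fold change of -0.068 (limma adjusted p = 0.596). For Smarcal1, which rewinds DNA at stalled forks, it was 0.022 (0.938).

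The levels of the genes spanned 3 orders of magnitude. Per kilobase of exon, Chd4, Smarca4, Smarcc1, Arid1a and Chd3 led, at 1745, 1252, 1014, 747 and 663. The other called genes lay in between, with Smarcd1 at 378, Chd2 at 347, Arid2 at 342, Smarca5 at 341, Chd7 at 231 and Actl6a at 208. Smarcd1, Chd2, Arid2 and Smarca5 were neighbours whose libraries overlapped in level, so their order is not resolved. At the low end Srcap stood at 53.4, Smarca1 at 44.8, Chd5 at 5.36, Dpf1 at 2.86 and Actl6b at 0.926. The SD of a gene between libraries of 1 diet, as a percent of its mean, had a median of 3.20% in food-restricted and 3.26% in control libraries over the 34 genes with a mean of at least 100. Of the called genes, Chd2 moved least, by 9.51% of the control mean, and Actl6a moved most and fell by 19.2%. The SD of Actl6a was 6.62% of its mean in food-restricted and 4.54% in control libraries, and that of Chd2 2.15% and 2.07%.

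**Figure D3:**
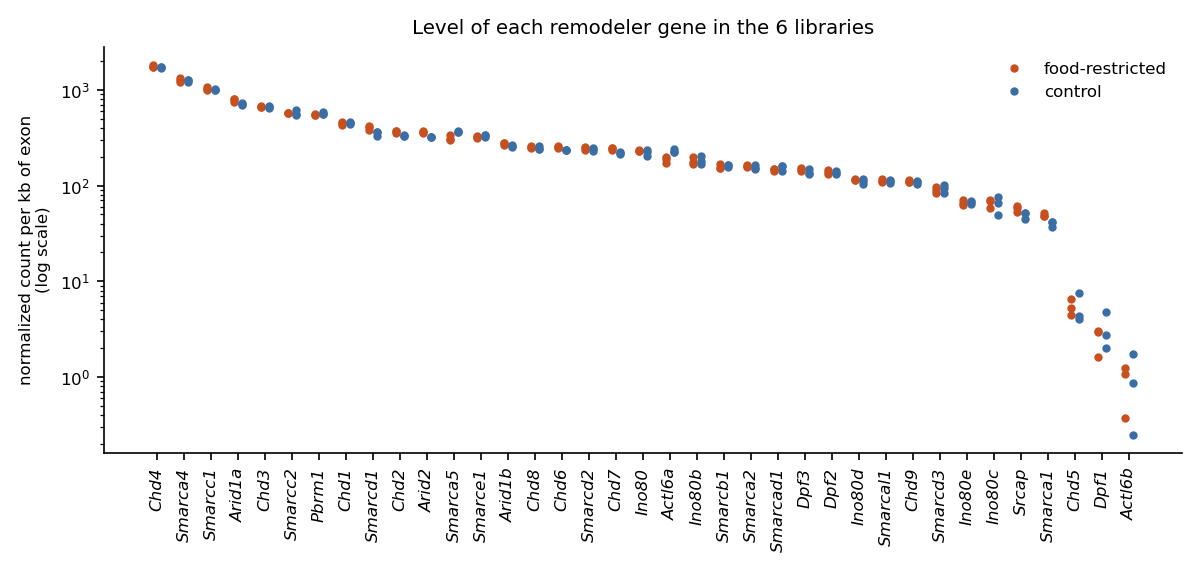
Level of each of the 37 genes in normalized counts per kilobase of exon (vertical axis, log scale) in the 6 libraries, food-restricted on the left and control on the right of each gene, ordered by mean. The order runs from Chd4 at 1745 to Actl6b at 0.926, and the gap between the diets is small beside the range between genes.

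For 11 of the 37 genes the food-restricted libraries lay all on one side of the controls. They were higher in food-restricted libraries for 9 genes (24.3%, where 9.48% of all genes tested did the same): the 5 that rose and Arid1b, Chd6, Srcap and Smarca1. They were lower for Actl6a and Smarca5 (5.41%, where 10.2% of all genes did the same). Of the 34 genes with a mean of at least 100, 26.5% lay higher and 5.88% lower. For protein-coding genes at that mean these shares were 13.7% and 15.8%. The log2 fold change was above 0 for 26 of the 37 genes and below 0 for 11. The shares above 0 were 49.6% of all genes and 48.1% of protein-coding genes at a mean of at least 100. None of these background shares was matched for exon length, which log2 fold changes followed. With the length trend removed, Smarcc2, Chd3, Chd4, Chd8, Chd9 and Ino80d went below 0 and Ino80b above 0. In summed normalized counts, the 18 SWI/SNF genes came to 50907, 51526 and 52163 in food-restricted libraries, against 50361, 50224 and 48819 in the controls. Those of the 9 CHD genes were 44033, 43990.4 and 43267 in food-restricted and 42104, 42602 and 42026 in control libraries. The 2 ISWI genes came to 2938, 2722 and 2607 in food-restricted and 3030.0, 3108 and 3133 in control libraries. These 3 sums did not overlap between the diets, nor did that of INO80 and SRCAP (5415 to 5532 in food-restricted, 5089 to 5333 in control libraries), while that of Smarcad1 and Smarcal1 did (2509 to 2658 against 2551 to 2766). Within families the sums of the SWI/SNF ATPases, the SWI/SNF core, CHD subfamilies I and II and INO80 overlapped. No background share was computed for any of these sums. Most of the ISWI sum was Smarca5 (mean 2454 in food-restricted and 2844 in control libraries), and Smarca1 moved the other way, to 122% of control.

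Within families, the balance between paralogs, only some of them alternative subunits of a complex, was compared as the log2 ratio of both genes in the same library. In 6 of 16 pairs the diets did not overlap. Each of the 6 had the smallest two-sided exact permutation p that the design allows, 0.1, or 0.267 adjusted over the 16 pairs. No background share was computed for gene pairs in general, so the count of 6 has nothing to be set against. Smarcd3 over Smarcd1 was at -1.82 ± 0.16 in food-restricted and -1.57 ± 0.064 in control libraries (SD, n = 3 each). Smarcd2 over Smarcd1 was at -0.89 ± 0.091 in food-restricted and -0.72 ± 0.034 in control libraries. In both pairs the ratio was lower in food-restricted libraries, on the side of more Smarcd1. Chd2 over Chd1 was at 0.42 ± 0.031 in food-restricted and 0.27 ± 0.012 in control libraries. Chd7 over Chd9 was at 0.39 ± 0.037 in food-restricted and 0.27 ± 0.074 in control libraries, and Arid1b over Arid1a at -1.38 ± 0.015 in food-restricted and -1.32 ± 0.034 in control libraries. The sixth pair was Smarca1 over Smarca5. Each of the 6 pairs holds a called gene (Smarcd1 in 2 of them, Chd2, Chd7, Arid1a and Smarca5), so the ratios in part restate those calls and are no separate result. In Smarca1 over Smarca5, the uncalled Smarca1 (log2 fold change 0.29) moved more than Smarca5 (-0.21). The ratios of Smarca2 to Smarca4 (difference 0.036) and of Chd3 to Chd4 (-0.014), the main alternative motors of BAF and NuRD, overlapped between the diets (exact permutation p = 0.9 and 0.8).

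**Figure D4:**
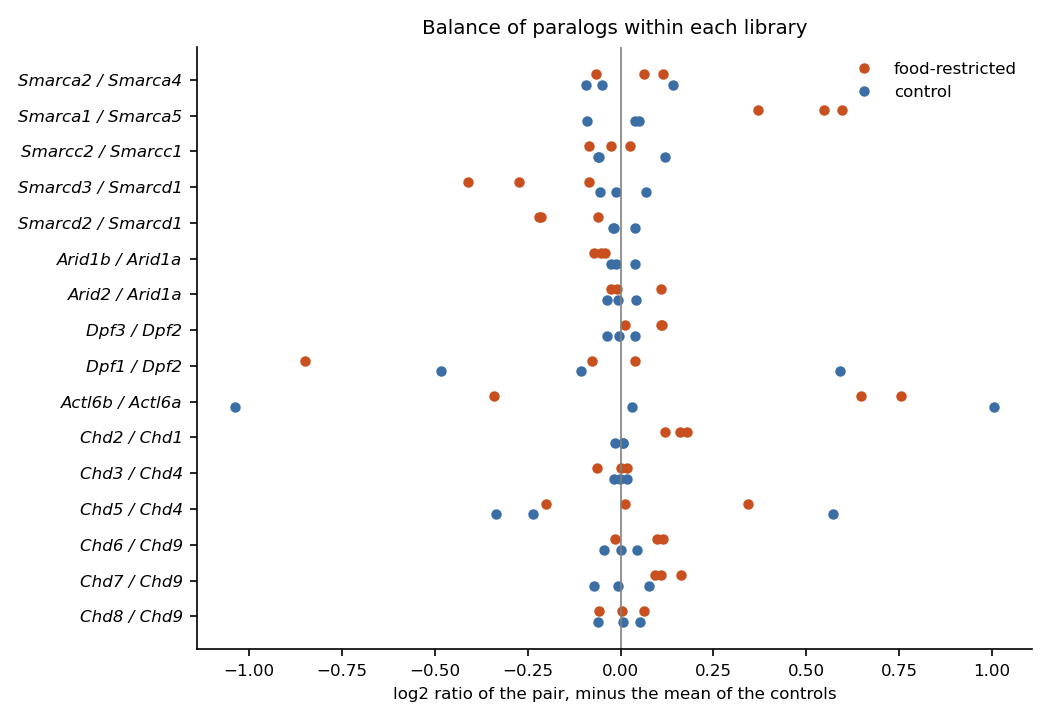
Log2 ratio of 2 paralogs within each library, as the distance from the control mean of that pair (horizontal axis, log2 units), for the 16 pairs; food-restricted libraries are drawn above controls. Smarca1 over Smarca5 stands apart, with food-restricted libraries 0.50 higher on average, while pairs with a scarce gene (Actl6b, Dpf1, Chd5) scatter widely in both diets.

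Other genes of the same complexes, on a list of 62 that the naming rule leaves out, showed 4 that rose and 4 that fell (median log2 fold change -0.0033). These are 12.9% of the 62, beside 4.74% of all genes and 9.86% of protein-coding genes at a mean of at least 100. In SWI/SNF, 1 of 12 rose: Bicra (listed as Gltscr1), a subunit of the non-canonical BAF complex, at 1007, 1188 and 1128 normalized counts in food-restricted against 906, 895 and 895 in control libraries (0.30, limma adjusted p = 0.00224). In NuRD, 2 of 12 fell and none rose. The deacetylase Hdac2 was at 2305 ± 89.1 in food-restricted and 2681 ± 107 in control libraries (SD, n = 3 each; -0.22, limma adjusted p = 0.00242), and the X-linked histone chaperone Rbbp7 fell by 0.22 on the log2 scale (limma adjusted p = 0.00467). Both were listed here as partners of the NuRD motor Chd4, which did not pass, and each gene was listed under 1 complex only. Among 9 ISWI partners, Baz2a, which joins Smarca5 in the complex that silences ribosomal RNA genes, rose (0.18, limma adjusted p = 0.0277), in the opposite direction to Smarca5. Of 9 INO80 partners, Nfrkb rose (0.20, limma adjusted p = 0.0490). Uchl5, a deubiquitinase that also serves the proteasome, fell, with 282, 257 and 219 normalized counts in food-restricted against 370, 376 and 447 in control libraries (-0.66, limma adjusted p = 1.03e-05). Of 8 SRCAP and TIP60 partners, the scaffold Trrap rose (0.16, limma adjusted p = 0.00536). Of 12 further SNF2-type helicases and their partners, Hells, which acts in DNA methylation and is highest in dividing cells, fell (-0.25, limma adjusted p = 0.00192).

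The calls of Uchl5 and Hells held under every alternative run, and the other partner calls did not. Single left-out libraries ended the calls of Bicra (limma adjusted p = 0.0666 without food-restricted replicate 2), Hdac2 (0.0559 without food-restricted replicate 3) and Rbbp7 (0.0966 without control replicate 2). That of Trrap ended without food-restricted replicates 2 or 3 (limma adjusted p = 0.0623 and 0.167) and control replicates 1 or 3 (0.0607 and 0.0834), and with the length trend removed (0.147). Baz2a no longer passed without food-restricted replicates 2 or 3 (limma adjusted p = 0.118 and 0.140), control replicates 2 or 3 (0.153 and 0.194), or with the length trend removed (0.108). Nfrkb was lost without any 1 library (limma adjusted p = 0.0587 without food-restricted replicate 1 to 0.171 without food-restricted replicate 2), with a pseudocount of 0.5 (0.0514) and with the length trend removed (0.142).

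Log2 fold changes were higher for genes with longer exons, and remodeler genes are long. Over all genes with a mean normalized count of at least 100, in 5 classes of exon length, the median log2 fold change was -0.20 under 1000 bases, -0.10 from 1000 to 2000, -0.035 from 2000 to 4000, 0.0037 from 4000 to 8000 and 0.034 over 8000 bases. The median exon length was 7832 bases for the 37 genes, against 5115 for protein-coding genes with a mean of at least 100. The 5 genes that rose had a median of 11476 bases, and Arid1a, Arid2, Chd2 and Chd7 were all over 8000. With the trend on length removed, these 4 no longer passed (limma adjusted p = 0.0682, 0.0586, 0.267 and 0.146), with log2 fold changes of 0.11, 0.13, 0.086 and 0.12. Smarcd1 at 4026 bases (0.21, limma adjusted p = 0.0183), Actl6a at 3886 bases (-0.30, 0.00550) and Smarca5 at 7777 bases (-0.24, 0.000728) still passed.

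**Figure D5:**
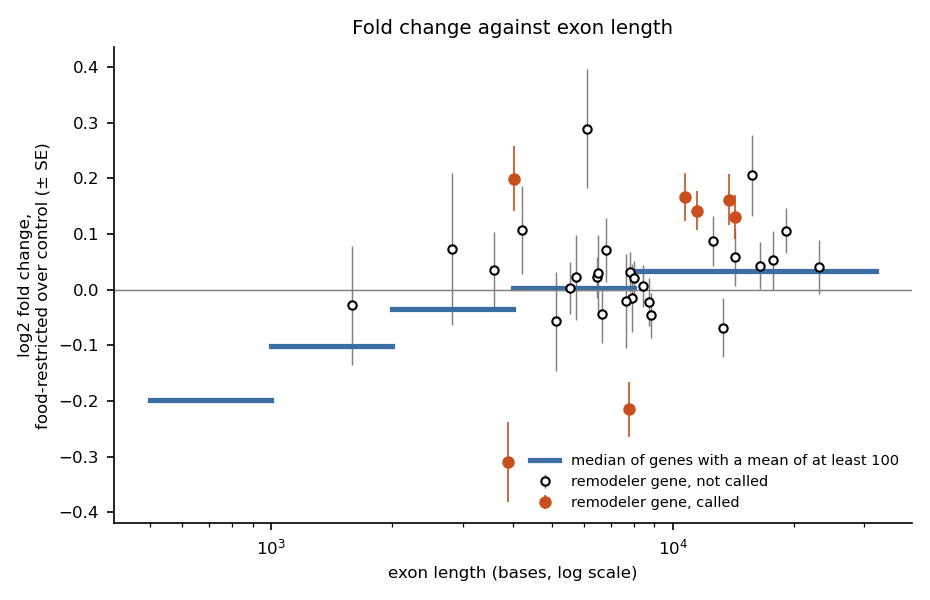
Log2 fold change (food-restricted over control, vertical axis, ± SE) against exon length in bases (log scale) for the 34 genes with a mean normalized count of at least 100; horizontal lines are medians of all genes with such a mean in 5 length classes. The medians climb from -0.20 to 0.034, and 4 of the 5 genes that rose lie over 8000 bases.

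The sorted cells carried the defining genes of nephron progenitors in both diets, and the mix of other RNA differed. In bulk RNA, fewer cells of a type and less RNA per cell cannot be told apart. Total counts were 6515127 to 16763479 in food-restricted and 10686582 to 12338593 in control libraries. The summed level of 12 progenitor markers was 39161 to 41185 normalized counts in food-restricted and 40373 to 41173 in control libraries (1 rose, 2 fell, Six2 and Cited1 not called). Of 8 cycling markers 6 fell, Mki67 and Top2a among them, and the sum was 22703 to 22957 against 27963 to 28540 in controls. All 8 proximal tubule markers fell, to 3384 to 3474 against 6059 to 6461 in controls. Sums were higher for 8 committed nephron markers (7119 to 7424 against 6402 to 6731 in controls, 2 rose), 8 stromal markers (2577 to 2800 against 2220 to 2276, 3 rose) and 6 macrophage markers (221 to 248 against 109 to 131, 3 rose). The 6 podocyte markers summed to 444 to 494 against 439 to 448 (1 fell), the 6 ureteric bud markers to 192 to 258 against 289 to 306 (1 fell), and the 5 measured neuronal markers to 273 to 310 against 319 to 351 (none called). Endothelial (145 to 197 against 139 to 180) and erythroid (168 to 209 against 186 to 271) markers had no call. Nphs1, Tubb3 and Wnt9b were among the markers at 0 in at least 1 library, and Wnt9b is named here only after its values were seen. Of 5 sex-linked genes Xist rose and all 4 Y-linked genes fell. The part of these shifts in the levels of the remodeler genes was not tested.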

How the data were processed

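RNA of GFP-sorted nephron progenitor cells was sequenced from 6 libraries (SMARTer stranded total RNA kit, per the labels' protocols). The submitters' processing notes name the build GRCm38 and the tools TopHat2 2.1.1, HTSeq 0.6.0 and DESeq2 1.22.1, beside bcl2fastq 2.18.0.12 and cutadapt 1.18. The deposited table holds whole-number read counts, normalized counts made by the authors (counts divided by 1 size factor per library) for 25157 genes, and the authors' own log2 fold changes, test score and adjusted p-values. For 6727 genes the table marks no count, and that mark kept the count columns from being declared as counts. The written fallback was therefore used, and a count model (edgeR, DESeq2) was not run anew.

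Normalized counts were tested as log2(value + 1) with limma 3.58.1 (R 4.3.3, mean-variance trend, diet as the only term, two-sided, Benjamini-Hochberg over 25157 genes, called under 0.05). A fold change has the food-restricted diet on top and is on that scale, which understates changes of low genes. The test was checked on simulated data. All 37 remodeler genes are named. Of partner genes the called ones are named, at most 3 per direction and complex, and of markers the first 2 per list; some markers are not reported here. Gene pairs were compared with two-sided exact permutation tests. Members, lists and tests were chosen with earlier results of these data known. The motif letters and the choice of window were settled after a first look at the windows, the comparison with protein-coding genes at a mean of at least 100 was added after the calls were seen, and so were limma-voom, total-count scaling and upper-quartile scaling. The promoters and the libraries plotted are those of called genes, plus Smarca1. Mean chi-square per gene between libraries of a diet was 2.87 to 9.59, so no library was a copy of another.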

Additional observations from a re-analysis of the deposited data

How the results depend on the processing

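Directions of the 7 called genes held under every alternative run, but most runs could not have reversed them. Their libraries did not overlap between the diets, so leaving out 1 library keeps the sign. The stricter filter and the replicate block leave the estimate as it is, and the pseudocount of 0.5 nearly so. Only limma-voom, the other scalings and the removal of the length trend could have changed a direction. Of the 37 genes, 7 were called with a filter of at least 1 CPM in 3 libraries, a pseudocount of 0.5 or upper-quartile scaling. They were 19.4% of the 36 that passed the filter, and 18.9% of the 37 in the other 2 runs. Of all genes, 7.57%, 4.57% and 4.79% were called in those 3 runs. Of protein-coding genes at a mean of at least 100 it was 10.3%, 9.56% and 9.98%. With the length trend removed 3 were called (1 higher, the partner genes called higher also 1), beside 1054 of 25084 genes in all (460 higher, 594 lower). With limma-voom on the whole counts 11 were called (9 higher, adding Arid1b, Chd4, Chd6 and Srcap). So were 13 partner genes (8 higher), and 971 of all genes were called higher. With total-count scaling 9 remodeler genes were called (adding Chd6 and Srcap). The 11 and the 9 are 29.7% and 24.3% of the 37, beside 5.87% and 4.75% of all genes. Of protein-coding genes at a mean of at least 100 it was 12.9% and 9.8%. Higher calls were 47.2% of all calls in the test used, 65.8% with limma-voom and 62.9% with total-count scaling; these scalings moved the median of all genes to 0.040 and 0.030. With the replicate number as a replicate block 4 were called (2 higher, losing Chd2, Chd7 and Smarcd1, limma adjusted p = 0.102, 0.0596 and 0.0536), and 2 partner genes higher (losing Baz2a and Nfrkb, 0.0621 and 0.0856). The 4 are 10.8% of the 37, beside 3.9% of all genes and 7.99% of protein-coding genes at a mean of at least 100. Same-numbered libraries deviated with correlations of -0.037, 0.012 and -0.0033. Correlations over many genes cannot tell whether the numbers mark a pairing that affects few of them, and no label says what they mark. Leaving out 1 library at a time gave 2 to 7 called genes (1 to 5 higher, 1 to 2 lower), 4 to 9 partner genes (0 to 4 higher, 3 to 5 lower) and 564 to 1357 genes in all (240 to 605 higher, 324 to 752 lower). Only the set without food-restricted replicate 1 kept the count at 7 (18.9%, beside 5.39% of all genes and 11.9% of protein-coding genes at a mean of at least 100). The count was 2, 2, 3, 3 and 3 without food-restricted replicates 2 and 3 and control replicates 1, 2 and 3. In that order it was 5.41%, 5.41%, 8.11%, 8.11% and 8.11% of the 37. For all genes it was 2.93%, 2.24%, 2.97%, 3.04% and 3.04%. For those protein-coding genes it was 6.05%, 4.77%, 6.44%, 6.37% and 6.35%. The cause of these changes was not tested, and neither was the part of the smaller number of libraries. edgeR and DESeq2, with edgeR's own scaling, were not run.

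Some uncalled genes changed sign. With limma-voom these were Smarcb1 (0.040), Actl6b (-0.0043), Chd1 (0.014), Ino80b (0.022) and Ino80e (0.0039). With total-count scaling they were Smarcb1 (0.020), Chd1 (0.013), Ino80b (0.0062) and Ino80e (0.014). With the length trend removed they were Smarcc2 (-0.010), Chd3 (-0.020), Chd4 (-0.0054), Chd8 (-0.0071), Chd9 (-0.025), Ino80b (0.029) and Ino80d (-0.00041). Leaving out libraries gave ranges across 0 of Smarca4 -0.013 to 0.063, Smarcb1 -0.061 to 0.012, Smarcc2 -0.031 to 0.06, Smarcd3 -0.13 to 0.0012, Actl6b -0.49 to 0.53, Dpf1 -0.53 to 0.059, Dpf2 -0.0092 to 0.072, Chd1 -0.047 to 0.010, Chd3 -0.0055 to 0.023, Chd5 -0.090 to 0.35, Ino80b -0.10 to 0.053, Ino80c -0.094 to 0.21, Ino80d -0.0017 to 0.097, Ino80e -0.066 to 0.02, Smarcal1 -0.0094 to 0.042. For the balance of paralogs the ranges across 0 were Smarca2 over Smarca4 -0.0096 to 0.11, Smarcc2 over Smarcc1 -0.059 to 0.031, Arid2 over Arid1a -0.017 to 0.050, Actl6b over Actl6a -0.17 to 0.86, Chd3 over Chd4 -0.030 to 0.0095, Chd5 over Chd4 -0.12 to 0.34, Chd8 over Chd9 -0.027 to 0.034. Actl6b, Dpf1 and Chd5 had the lowest counts of the 37 genes.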
